A study of Mus musculus with 2 samples.

Results

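Tight clusters of CTCF peaks in fetal liver were studied, meaning places where 3 or more peaks follow each other at distances of at most 3 kb. The binding of CTCF, an architectural DNA-binding protein found at insulators and loop anchors, had been mapped by chromatin immunoprecipitation with sequencing (ChIP-seq). The material was liver of embryos of mouse strain B6NCrl at day 14.5, untreated and without any engineered allele, and the livers were pooled over several dissections and over both sexes. There was 1 group with 2 libraries. The labels number them as biological replicates and give the same biosample for both, so whether they stem from separate pools of livers is not known. Every SD given with n = 2 was taken to cover library making and sequencing, and may not hold the spread between animals. Whole liver at this stage holds several cell types, and a peak cannot be assigned to any of them. Read depth is unknown.

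The members were chosen by their own positions and signals. The optimal list, made from the pooled and single-library lists with a threshold on the irreproducible discovery rate (IDR), had 50909 peaks, and 49791 of them lay on chromosomes 1 to 19. Of summits closer together than the width of a common peak the one of higher signal was kept, which left 48984 peaks. Neighbours up to 3 kb apart were chained, which gave 1238 clusters of 3 or more peaks with 4091 peaks in all, or 8.35% of the autosomal peaks (Wilson 95% interval, counting error only, 8.11 to 8.60). The other peaks formed 5035 pairs and 34823 single peaks. Spacing and cluster size follow from this choice and are given as descriptions.

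CTCF binds DNA through an array of zinc fingers that reads a long motif without a mirror symmetry, so each site has a direction. Cohesin, the ring that extrudes chromatin loops, is held up at CTCF sites, and loop anchors are known for motifs that point towards each other. Groups of CTCF sites are known at insulators, at antigen receptor loci and at imprinted control regions, where binding differs between the parental alleles. The 14-base core CTCF motif was searched on both strands within 50 bp of each summit with at most 2 mismatches, and 71.6% of all autosomal peaks held a match.

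The cluster with the most peaks is shown first because its motifs repeat in 1 direction. It lay on chromosome 12 at 113216118 to 113224420 (first to last summit, build mm10), with 9 peaks in intergenic DNA. The nearest immunoglobulin heavy chain gene was Igha, the constant region of IgA, whose nearer end lay 30410 bp beyond the last summit, and Tmem121 ended 26595 bp before the first summit. The area on this side of the heavy chain locus is known for a row of CTCF sites beyond its enhancers. The best match of each peak is printed below in the direction of the motif, with the core in capitals and 10 bases on each side in lower case, read from the mm10 (GRCm38) reference.
Peak 1, chr12:113216108-113216141, plus strand: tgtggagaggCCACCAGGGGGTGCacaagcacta
Peak 2, chr12:113217452-113217485, plus strand: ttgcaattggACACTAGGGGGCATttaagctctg
Peak 3, chr12:113218076-113218109, plus strand: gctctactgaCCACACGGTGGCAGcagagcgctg
Peak 4, chr12:113220043-113220076, plus strand: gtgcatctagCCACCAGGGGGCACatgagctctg
Peak 5, chr12:113220666-113220699, plus strand: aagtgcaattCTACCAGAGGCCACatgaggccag
Peak 6, chr12:113221398-113221431, plus strand: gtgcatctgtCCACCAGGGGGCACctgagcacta
Peak 7, chr12:113222206-113222239, plus strand: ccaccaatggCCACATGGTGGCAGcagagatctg
Peak 8, chr12:113222943-113222976, plus strand: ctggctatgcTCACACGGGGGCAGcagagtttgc
Peak 9, chr12:113224386-113224419, plus strand: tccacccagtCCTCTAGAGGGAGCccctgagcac
All 9 matches lay on the plus strand, towards Igha. Peaks 4 and 6 had identical cores and shared 29 of the 34 printed bases. Peaks 3 and 7 shared 13 of the 14 core bases and 26 of the 34. Peak 8 reached the motif with 3 mismatches and was therefore counted as a peak without a match.

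The cluster upstream of H19 is shown because its peaks repeat a core that the motif as written does not reach. H19 is an imprinted gene for a long RNA, and its control region binds CTCF on the maternal allele, which these peaks cannot tell from the paternal one. Its 3 peaks lay 2170, 2628 and 3863 bp from the H19 start in intergenic DNA on chromosome 7, and the best match of each had 3 mismatches.
H19 peak 1, chr7:142580299-142580332, minus strand: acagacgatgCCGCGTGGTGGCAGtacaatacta
H19 peak 2, chr7:142580754-142580787, minus strand: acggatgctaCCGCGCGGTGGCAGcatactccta
H19 peak 3, chr7:142582024-142582057, minus strand: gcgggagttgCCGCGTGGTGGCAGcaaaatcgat
The cores of peaks 1 and 3 were identical over all 14 bases, and that of peak 2 shared 13 of them with each. Outside the core the bases varied, and peaks 1 and 3 shared 23 of the 34 printed bases. All 3 matches lay on the minus strand.

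In the chromosome 12 cluster every peak was found in both libraries. The relative signal of a peak is the signal of that library's own peak within 100 bp of the summit, divided by the median signal of the library's 50909 strongest peaks. In replicate 1 the 9 relative signals were 5.68, 4.88, 7.33, 6.44, 2.73, 4.71, 5.65, 2.55 and 2.78, in order of position. In replicate 2 they were 3.56, 3.16, 5.47, 4.25, 2.52, 3.31, 3.71, 1.45 and 1.55. Peak 3 was the highest in both, at 6.40 ± 1.31 (SD, n = 2), and peak 8 the lowest in both, at 2.00 ± 0.778 (SD, n = 2). All 9 peaks were higher in replicate 1, and in both libraries peaks 1 to 4, 6 and 7 lay above peaks 5, 8 and 9. The shift is not particular to this cluster. The strongest peaks of all clusters had median relative signals of 3.99 in replicate 1 and 3.21 in replicate 2. In the optimal list the signals of the 9 peaks ran from 141 to 429, against a median of 68.4 over autosomal peaks.

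**Figure D1:**
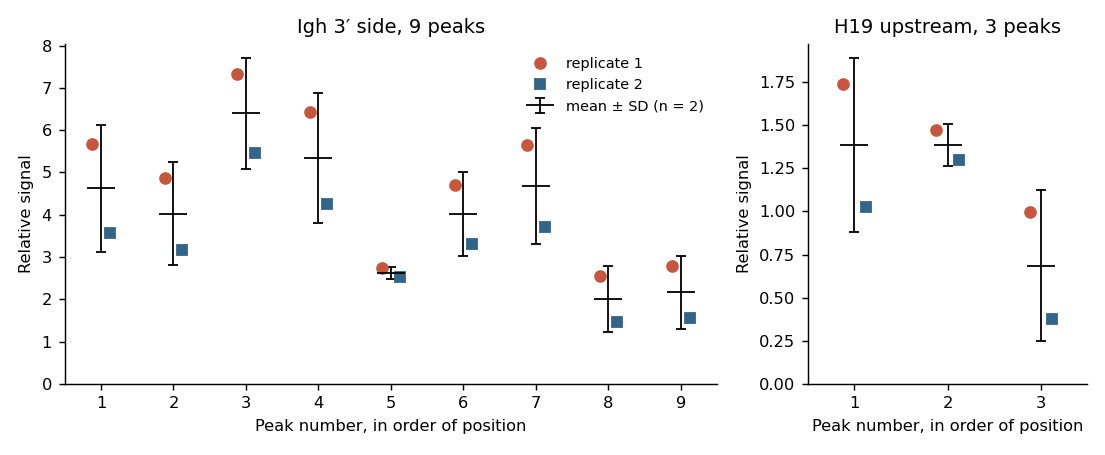
Relative signal (vertical axis, no unit, library median of strongest peaks = 1) of each peak of the 9-peak cluster on the Igh side (left) and of the 3 peaks upstream of H19 (right), in order of position. Circles and squares are the 2 libraries and bars the mean ± SD (n = 2). Peak 3 of the 9-peak cluster is the highest in both libraries, and the third H19 peak the lowest of its cluster in both.

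The H19 peaks were weaker. Their relative signals were 1.74, 1.47 and 0.997 in replicate 1, and 1.03, 1.30 and 0.374 in replicate 2. The third peak, the farthest from H19, was the lowest in both libraries, and the libraries differed on which of the other two was higher. Their signals in the optimal list were 94.4, 89.5 and 49.5, and all 3 peaks were in the conservative list, the stricter of the deposited IDR lists.

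Most clusters were small. There were 950 clusters of 3 peaks, 221 of 4, 54 of 5, 7 of 6, 4 of 7, 1 of 8 and 1 of 9. The distance from first to last summit had a median of 3391 bp (quartiles 2534 and 4425) and ran from 1005 bp, at the start of the kinase gene Map2k1, to 10834 bp, at Rap1gap, whose product switches off the small GTPase Rap1. Neighbouring summits in a cluster stood a median of 1456 bp apart, against 1487 bp in pairs. The narrowest distances kept were 346, 348 and 348 bp, and the widest distances merged beside a cluster were 267, 274 and 278 bp. The widest distances chained were 2999, 3000 and 3000 bp, and the next ones, all at 3002 bp, were left unchained.

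**Figure D2:**
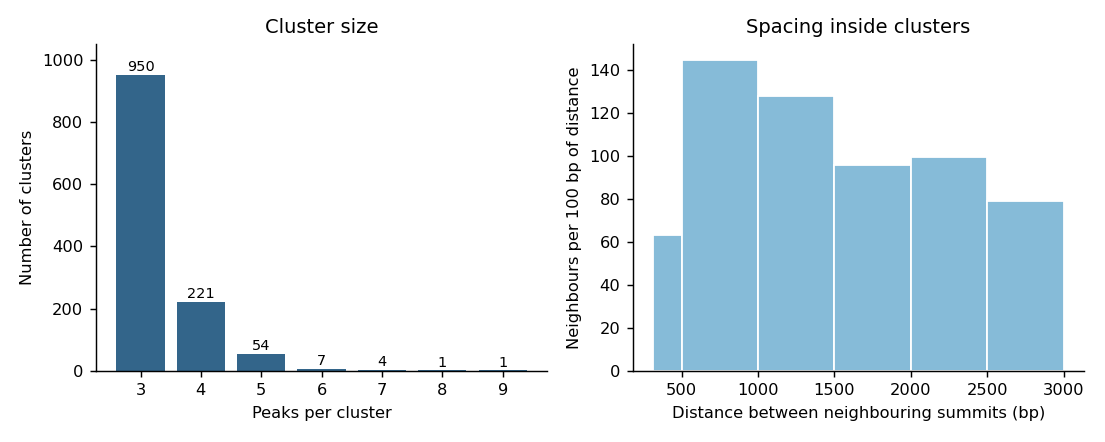
Left, number of clusters (vertical axis) by number of peaks per cluster. Right, distance between neighbouring summits in clusters (horizontal axis, bp) as neighbours per 100 bp of distance. The rule sets both ends of this range, and 950 of the 1238 clusters have 3 peaks.

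Clusters were unevenly spread. Chromosome 11 held the most, with 143 or 1.20 per Mb, and 11.9% of its peaks lay in clusters. Chromosome 19 followed with 0.911 per Mb and chromosome 7 with 0.839 per Mb. Chromosome 14 was the sparsest at 0.206 per Mb, with 4.26% of its peaks in clusters. All autosomal peaks were also densest on chromosome 11, at 33.7 per Mb, against 14.7 per Mb on chromosome 14. The median distance from 1 cluster to the next was 465176 bp, and 28 neighbouring clusters stood within 10 kb of each other.

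The strongest peak of a cluster had a signal 6.14 times that of the weakest in the median cluster (quartiles 3.17 and 11.7, range 1.07 to 87.6). This ratio grows with the number of peaks and was 2.55 in the median pair, and between neighbouring peaks in clusters the median ratio was 1.85 to 2.67, depending on their distance. These are descriptions, since signal decided which close summits were kept. In 178 clusters, 14.4%, every peak lay above the autosomal median of 68.4, and in 140, 11.3%, none did. The strongest peaks had a median signal of 238, and the weakest one of 27.1. In clusters of 3, the strongest peak stood first in 34.4%, in the middle in 30.9% and last in 34.6%. No place along the cluster thus stood out as the usual one of the strongest peak.

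The most even cluster lay in an intron of Slc41a3, a member of a family of magnesium transporters, on chromosome 6 at 90606744 to 90608364. Its 3 signals were 443, 417 and 415.7. Relative to the library median they stood at 8.45, 6.82 and 7.59 in replicate 1, and 5.25, 5.69 and 5.12 in replicate 2. The libraries differed on which peak was the highest, so the order of these peaks is not larger than the spread between libraries. Peaks 1 and 2 had a motif match, on opposite strands, and peak 3 one with 3 mismatches. The next clusters by their weakest peak lay near Gm20443 (459, 435 and 368), upstream of P4ha1, a subunit of the collagen prolyl hydroxylase (514, 369 and 359), and in Sema6b, a semaphorin of nerve guidance (403, 339.9 and 334).

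Larger clusters mixed strong and weak peaks. The 8-peak cluster lay in intergenic DNA near Commd7 on chromosome 2, at 153600558 to 153610866, with signals from 22.3 to 499.5 and a match at 4 of its peaks. Its strongest peak had relative signals of 8.72 and 6.24 in replicates 1 and 2, and its weakest had 0.456 and 0.311. The 4 clusters of 7 peaks lay at Dnajc11, a mitochondrial membrane protein, with signals from 7.52 to 578, at Kazald1 with 20.6 to 319.9, at Tecr, an enzyme of very long chain fatty acid synthesis, with 22.0 to 117, and in introns of Gse1 with 12.2 to 170. The largest ratio among these was 76.8 at Dnajc11, where 2 of the 7 peaks were absent from the conservative list. A cluster of 6 peaks in Rbm19, a protein of ribosome assembly, was more even, at 56.6 to 446.

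The motif was less frequent in clusters than outside them. Of the cluster peaks, 2607 of 4091 had a match, 63.7% (62.2 to 65.2), against 67.9% (67.0 to 68.8) in pairs, 73.7% (73.2 to 74.1) of single peaks and 71.6% of all autosomal peaks. All these intervals are Wilson 95% intervals, and peaks of 1 cluster share their source, so no test was made over peaks. With clusters rebuilt in each library alone, cluster and single peaks had a match in 55.9% and 67.5% in replicate 1, and in 67.8% and 75.4% in replicate 2. The difference of clusters minus single peaks was -11.5 points in replicate 1 and -7.58 points in replicate 2, or -9.56 ± 2.79 points (SD, n = 2). The libraries differed in level by as much as the classes did, and the difference had the same direction in both.

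Within clusters the share followed the rank of the peak by signal. Single peaks of like signal were not compared, so whether this is particular to clusters was not tested. The strongest peak of a cluster had a match in 78.5% of cases (76.1 to 80.7), the peaks between in 64.8% (62.4 to 67.1) and the weakest in 47.6% (44.8 to 50.4). In pairs it was 76.3% for the stronger and 59.5% for the weaker peak. A match without any mismatch was found at 8.65% of cluster, 9.82% of pair, 10.98% of single and 10.6% of all autosomal peaks. By rank it was found at 16.5% of the strongest and at 2.34% of the weakest peaks of clusters. In pairs it was found at 14.36% of the stronger and at 5.28% of the weaker peaks. Of the clusters, 459 (37.1%) had a match at 3 or more peaks, 429 at 2 peaks, 274 at 1 and 76 (6.14%) at none. In 349 clusters (28.2%) every peak had a match.

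**Figure D3:**
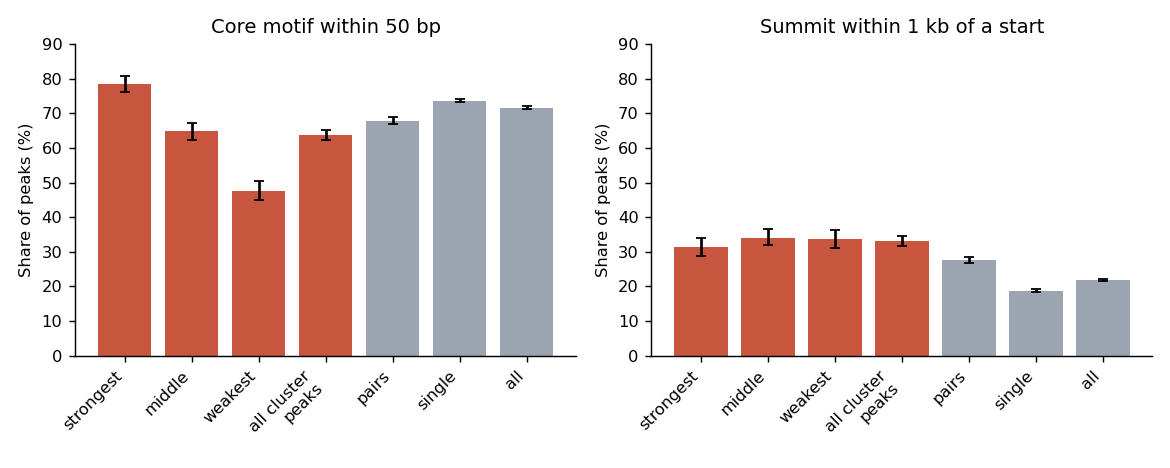
Share of peaks (vertical axis, %) with a core CTCF motif within 50 bp of the summit (left) and with the summit within 1 kb of a transcript start (right), for the strongest, middle, weakest and all peaks of clusters, then pairs, single peaks and all autosomal peaks. Error bars are Wilson 95% intervals. The motif share is 78.5% in the strongest and 47.6% in the weakest cluster peaks, while the promoter share is 31.4%, 34.1% and 33.7% over the 3 ranks and 18.8% in single peaks.

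Clusters stood at gene starts more often than single peaks. A summit at most 1 kb from a transcript start, called promoter here, was found for 1357 of 4091 cluster peaks, 33.2% (31.7 to 34.6), against 27.6% in pairs, 18.8% of single peaks and 21.8% of all autosomal peaks. Introns held 31.0% of cluster peaks, against 35.1% in pairs and 42.1% of single peaks. Intergenic DNA held 28.6%, 31.4% and 33.7% of cluster, pair and single peaks in that order. In the libraries taken alone, promoters held 36.3% of cluster and 20.8% of single peaks in replicate 1, and 29.6% and 17.0% in replicate 2, a difference of 14.02 ± 2.02 points (SD, n = 2). Median GC within 100 bp of the summit was 52.7% in clusters, 51.7% in pairs and 49.8% in single peaks. At least 1 promoter peak was present in 702 clusters, 56.7% (53.9 to 59.4), or 56.5 ± 5.48% (SD, n = 2) in clusters rebuilt from the libraries. A cluster has more peaks than a single site and so more chances to hold a promoter peak, which is why shares per peak are given first. In 127 clusters every peak was at a promoter, in 204 every peak was intronic and in 227 every peak was intergenic.

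Motif and location moved together. The 702 clusters with a promoter peak had a match at 55.1% of their peaks, against 75.5% in the 536 clusters without one. A match at every peak was found in 16.8% of the clusters with a promoter peak and in 43.1% of those without. At promoters alone, 46.3% of cluster peaks had a match (43.6 to 48.9), against 47.0% in pairs and 53.6% of single peaks. In intergenic DNA these shares were 74.9% (72.4 to 77.3), 78.7% and 80.5%, and in introns 72.2% (69.7 to 74.6), 74.7% and 77.1%. In each of these locations the share in clusters was below that of single peaks, with differences of -7.31 points at promoters, -5.63 points in intergenic DNA and -4.91 points in introns. In the libraries taken alone the same held at promoters, with 39.9% in clusters against 47.1% of single peaks in replicate 1 and 51.4% against 58.0% in replicate 2. GC content differed between the 2 kinds of cluster as well, with medians of 54.7% with and 51.2% without a promoter peak, and its part in the motif share was not tested.

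The promoter clusters include Pdgfra, a growth factor receptor of mesenchymal cells, on chromosome 5 at 75155828 to 75157269. Its relative signals were 1.72, 3.71 and 2.17 in replicate 1, and 1.37, 1.95 and 2.90 in replicate 2. The second peak was highest in replicate 1 and the third in replicate 2, and the first was lowest in both. At Map2k1, the shortest cluster, 1 peak of signal 374 stood beside peaks of 29.8 and 15.8, and the weakest of these had a peak in replicate 2 only. At Maz and Kif22 and at Pds5a, a cohesin regulator, all 3 peaks lay at promoters and none had a match.

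Inside clusters, motifs of neighbouring peaks pointed the same way in about as many cases as in pairs and between neighbours up to 20 kb apart. Neighbouring peaks that both had a match formed 1232 motif pairs in clusters. Of these, 53.7% pointed the same way (50.9 to 56.4), 20.9% towards each other (convergent) and 25.4% away from each other (divergent). In pairs of peaks the same shares were 55.8%, 18.7% and 25.5%. Among neighbouring peaks over 3 to 5 kb apart 53.0% pointed the same way and 19.9% were convergent, and among those over 5 to 20 kb apart 51.9% and 21.0%. At over 20 to 100 kb the convergent share was 25.2%, and at over 100 kb to 1 Mb it was 31.2%. The convergent share in clusters minus that over 100 kb apart was thus -10.3 points. The same-strand share was 53.0% in clusters rebuilt from replicate 1 and 53.3% in those from replicate 2.

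In the 289 clusters of 3 with a match at every peak, all 3 motifs pointed the same way in 90 clusters, or 31.1%. In 91, or 31.5%, 1 end motif pointed outwards and away from the other two, giving 1 divergent and 1 same-strand pair of neighbours. The directions alternated in 62, or 21.5%, giving 1 convergent and 1 divergent pair. In 46, or 15.9%, 1 end motif pointed inwards, giving 1 convergent and 1 same-strand pair. Over the 349 clusters of any size with a match at every peak, 102 had all motifs on 1 strand, 29.2%. The longest run of matched peaks on 1 strand was 8 in 1 cluster, the one beside Igha, 5 in 2 clusters and 4 in 14 clusters. Clusters with a promoter peak had 50.2% same-strand neighbours, against 56.2% in clusters without one. These shares rest on 522 and 710 motif pairs, and their difference was not tested.

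**Figure D4:**
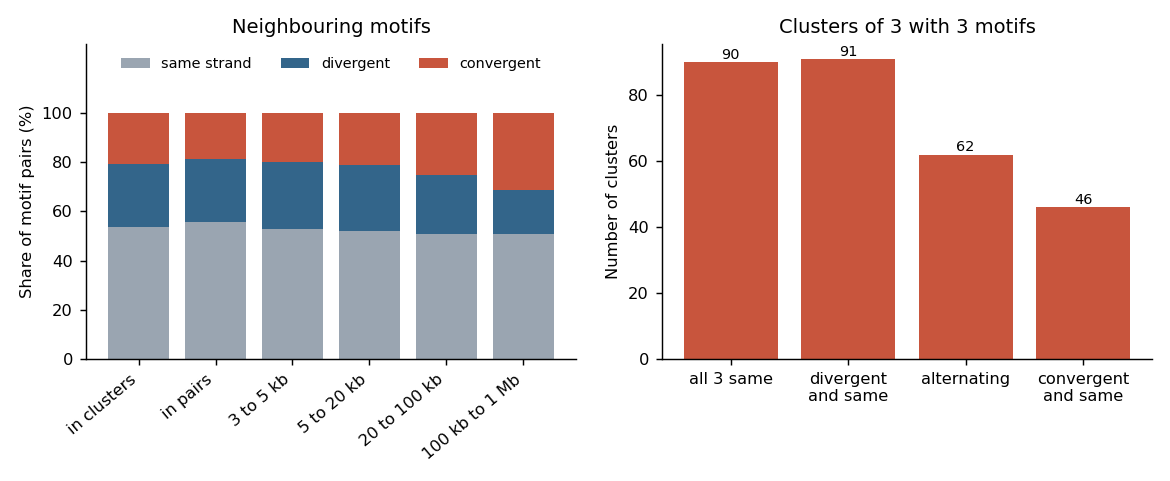
Left, share of neighbouring motif pairs (vertical axis, %) that are on the same strand, divergent or convergent, in clusters, in pairs of peaks and between neighbours further apart. Right, number of 3-peak clusters with 3 motifs (289 in all) by pattern of directions. Convergent motifs make up 20.9% in clusters and 31.2% over 100 kb apart, and the pattern of 1 convergent and 1 same-strand pair is the least frequent of the 4, with 46 clusters.

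Clusters with a close match at every peak are shown next because they give the patterns of direction in full. The one of highest summed signal lay at Pink1, a kinase of mitochondrial quality control, on chromosome 4, and its directions alternated.
Pink1 peak 1, chr4:138315950-138315983, minus strand: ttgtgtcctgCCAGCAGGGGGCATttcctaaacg
Pink1 peak 2, chr4:138316538-138316571, plus strand: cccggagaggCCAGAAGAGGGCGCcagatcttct
Pink1 peak 3, chr4:138318674-138318707, minus strand: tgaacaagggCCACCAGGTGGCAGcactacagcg
Pink1 peak 4, chr4:138319708-138319741, plus strand: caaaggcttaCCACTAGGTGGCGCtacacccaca
Their relative signals were 3.89, 0.773, 7.03 and 12.3 in replicate 1, and 1.88, 1.06, 4.23 and 8.99 in replicate 2. Their order was the same in both libraries, and the fourth peak had rank 7 among all peaks of each. Peaks 1 and 2 lay at starts of Mir7019 and Pink1, and peaks 3 and 4 in an intron. The summit of the second peak, the weakest, was repeat-masked.

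In an intron of Ksr2, a scaffold protein of the Ras pathway, 4 motifs pointed the same way on chromosome 5.
Ksr2 peak 1, chr5:117502795-117502828, plus strand: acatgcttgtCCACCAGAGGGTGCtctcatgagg
Ksr2 peak 2, chr5:117504614-117504647, plus strand: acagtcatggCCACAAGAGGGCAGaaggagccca
Ksr2 peak 3, chr5:117505330-117505363, plus strand: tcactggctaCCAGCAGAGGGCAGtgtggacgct
Ksr2 peak 4, chr5:117506551-117506584, plus strand: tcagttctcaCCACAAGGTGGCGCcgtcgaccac
Relative signals were 6.38, 8.84 and 5.27 for peaks 1, 3 and 4 in replicate 1, and 3.9955, 6.51 and 3.84 in replicate 2. Peak 2 had a relative signal of 0.640 in replicate 2 and no peak within 100 bp in the list of replicate 1, although its core had 1 mismatch. The third peak was the highest in both libraries.

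A same-strand cluster of 3 lay in an intron of Jade2, a PHD finger protein of histone acetylation complexes, on chromosome 11.
Jade2 peak 1, chr11:51817942-51817975, plus strand: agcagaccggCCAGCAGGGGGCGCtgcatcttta
Jade2 peak 2, chr11:51820125-51820158, plus strand: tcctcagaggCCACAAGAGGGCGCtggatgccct
Jade2 peak 3, chr11:51821046-51821079, plus strand: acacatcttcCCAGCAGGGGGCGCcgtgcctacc
Its relative signals were 8.82, 3.98 and 7.55 in replicate 1, and 5.59, 3.86 and 5.63 in replicate 2. The middle peak was the lowest in both libraries, and its summit was repeat-masked in the reference. Peaks 1 and 3 had identical cores without a mismatch. In an intron of Rab11fip3, a partner of the Rab11 GTPase in endosome transport, 3 peaks with signals from 315 to 571 pointed 2 to the right and 1 to the left.

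**Figure D5:**
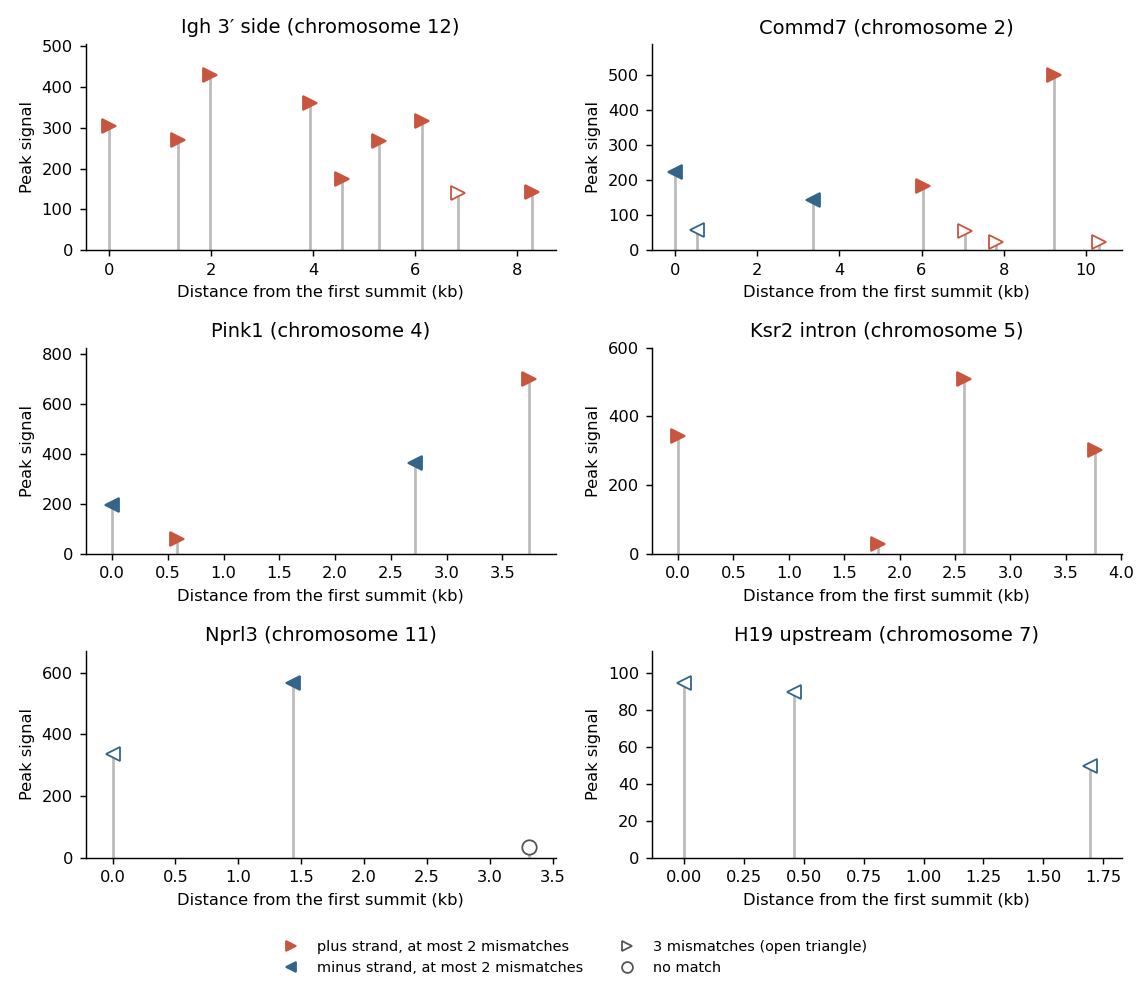
Signal in the optimal list (vertical axis, caller's own scale) of each peak of 6 clusters against the distance from the first summit (horizontal axis, kb). Filled triangles give the strand of a motif match with at most 2 mismatches, open triangles that of a match with 3, and open circles mark no match. The 9 triangles of the cluster on the Igh side all point to the right, those at Pink1 alternate, and the 3 at H19 are open and point to the left.

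The peaks of a cluster seldom resembled each other in sequence. Likeness was the share of 12-base words within 150 bp of a summit that are found, on either strand, at another peak of the same cluster. It was over 10% in 8 of 1238 clusters, or 0.646% (0.328 to 1.27), and in 23 of 5035 pairs, or 0.457%, and 935 clusters shared no word at all. The highest value, 75.2%, belonged to 3 promoter peaks at Gm13286, Gm13283 and Gm13284 on chromosome 4, with signals of 52.0, 30.6 and 52.2 and no match. Reads from copies this alike may be placed on the wrong one, and how such reads were treated before deposit was not analysed here. The next values were 45.9% at AI464131 and 24.8% at Camta1, a transcription factor that binds calmodulin. In both, 2 peaks carried near copies of 1 site, which are shown for comparison.
AI464131 peak 3, chr4:41505423-41505456, minus strand: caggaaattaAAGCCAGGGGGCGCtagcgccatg
AI464131 peak 4, chr4:41506342-41506375, minus strand: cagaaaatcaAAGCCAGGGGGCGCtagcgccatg
Camta1 peak 1, chr4:151215361-151215394, plus strand: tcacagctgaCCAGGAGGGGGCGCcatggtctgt
Camta1 peak 2, chr4:151217078-151217111, plus strand: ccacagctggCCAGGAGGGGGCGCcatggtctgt
Camta1 peak 3, chr4:151219474-151219507, plus strand: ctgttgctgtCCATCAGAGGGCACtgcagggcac
Both AI464131 sites, which lay in an intron of 1110017D15Rik, reached the motif with 3 mismatches and shared 32 of 34 printed bases. Camta1 peaks 1 and 2 also shared 32 of 34, and peak 3 shared 15 with peak 1. Relative signals at AI464131 were 1.89 and 3.45 for peaks 3 and 4 in replicate 1, against 1.23 and 1.76 in replicate 2. These near-identical sites thus differed in signal in the same direction in both libraries. Reads may be placed on the wrong copy here too, so whether binding itself differed was not tested.

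Some motif copies came from repeats. A repeat-masked base lay at the summit of 20.9% of cluster peaks (19.7 to 22.2), against 21.7% in pairs, 22.9% of single peaks and 22.5% of all autosomal peaks, so the share was near that of the other peaks. Among cluster peaks it was 15.6% for the strongest and 25.7% for the weakest, and in pairs 18.2% for the stronger and 25.2% for the weaker. The most frequent exact core over all peaks was CCAGAAGAGGGCAT, with 2025 copies, of which 93.3% had a repeat-masked summit. B2 elements, short repeats of rodents, are known to carry a CTCF motif of this kind. It made up 164 of 2607 cluster matches, 6.29%, against 5.97% in pairs and 5.67% of single peaks. In clusters its copies had a median signal of 45.2, against 73.9 for all cluster peaks. Over all autosomal peaks the values were alike, at 46.2 for its copies against 69.9. It was held at 2 or more peaks by 8 clusters. The next 3 cores, CCAGAAGAGGGCAC, CCAGAAGAGGGCGC and CCAGAAGAGGGCGT, began with the same 12 bases and had a repeat-masked summit in 90.5 to 92.3% of copies.

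Clusters were found again in each library to different degrees. Applying the rule to the 50909 strongest peaks of a library gave 1455 clusters in replicate 1 and 1164 in replicate 2, or 1310 ± 206 (SD, n = 2). Of the 1238 clusters, 710 (57.4%) overlapped a rebuilt cluster in both libraries, 242 in replicate 1 only, 148 in replicate 2 only and 138 in neither. The 4 sets differed in makeup. Those of both libraries had a motif match at 70.6% of peaks and a promoter peak in 53.9% of clusters, those of replicate 1 only 50.3% and 68.6%, those of replicate 2 only 66.8% and 46.6%, and those of neither 45.8% and 60.9%. The median signal of the weakest peak was 41.2 in the clusters of both libraries and 15.6 in those of neither.

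Peak by peak, 984 clusters (79.5%) had every peak in the full lists of both libraries, and in 801 of them (81.4%) both libraries had the same strongest peak. In 553 clusters (44.7%) every peak was among the 50909 strongest of both. A cluster has more peaks than a single site and so more chances to miss one. Taken per peak, 92.9% of cluster peaks and 94.7% of all autosomal peaks were in both full lists. Among the 50909 strongest of both were 77.6% of cluster peaks and 77.9% of all autosomal peaks. The conservative list held 86.8% of cluster peaks (85.8 to 87.9), against 87.7% in pairs, 86.9% of single peaks and 87.1% of all autosomal peaks. It held every peak of 786 clusters, 63.5% (60.8 to 66.1), and by rank it held 99.4% of the strongest and 66.6% of the weakest peaks. In pairs it held 96.9% of the stronger and 78.4% of the weaker peaks. Rank was taken from signal in the optimal list, which comes from the same libraries, so these contrasts are descriptions.

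Genes with a start within 10 kb of a cluster were counted in lists, against 1326 of 20778 autosomal protein-coding genes, or 6.38%. Genes side by side can share a cluster. In red cell genes the count was 9 of 33, or 27.3%, with Ank1, Bcl11a, Epor, Gfi1b, Lyl1, Nprl3, Rhd, Sptb and Zfpm1. In imprinted genes it was 7 of 45, or 15.6%, from 5 clusters, and in ribosomal protein genes 15 of 72, or 20.8%. Hepatocyte and hepatoblast genes had 2 of 31 (Apoe and Cebpb), or 6.45%, close to the share of all genes. Endothelial and mesenchymal genes had 2 of 18 (Pdgfra and Vim), cohesin and CTCF partners 2 of 20 (Maz and Pds5a), and neuron and muscle genes 1 of 18 (Myod1). Genes of blood stem and other blood cells had 0 of 24, Hox genes 0 of 39 and clustered protocadherin genes 0 of 56. Zinc finger genes named Zfp had 15 of 358, histone genes 2 of 67, olfactory receptor genes 1 of 1127 and microRNA genes, which are not protein-coding, 65 of 1099. No test was made over these lists, and the density of genes around them was not matched. The lists were chosen with earlier results of these data known, so a share also depends on which list a gene was put in.

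By summed signal, the clusters of the red cell list were led by the one near Lyl1, a transcription factor of blood formation. It had 5 peaks over 6684 bp over Trmt1, Lyl1 and Nfix on chromosome 8. Their relative signals were 2.61, 7.04, 3.46, 1.44 and 8.47 in replicate 1, and 3.21, 4.47, 1.98, 0.587 and 5.88 in replicate 2. Peak 5, in an exon and nearest to a start of Nfix, was the highest and peak 4 the lowest in both libraries. Peak 2 was high in both without any match. At Nprl3, whose introns are known to hold enhancers of the neighbouring alpha-globin genes, relative signals were 5.79, 10.05 and 0.439 in replicate 1, and 4.29, 7.04 and 0.524 in replicate 2. Its first peak reached the motif with 3 mismatches, on the strand of the second.

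At Sptb, which encodes a spectrin of the red cell membrane skeleton, the outer peaks had relative signals of 5.23 and 5.20 in replicate 1, and 4.40 and 3.28 in replicate 2. The middle peak had 0.517 and 0.0963 and was absent from the conservative list. At Gfi1b, a repressor of the red cell and platelet lineages, 1 strong peak of 6.52 in replicate 1 and 5.00 in replicate 2 had a core free of mismatches, and the peak at the start itself had 0.341 and 0.154. At Rhd, a Rh blood group protein, relative signals were 1.02, 4.44 and 3.27 in replicate 1, and 0.672, 2.64 and 2.58 in replicate 2, with repeat-masked summits at the outer peaks. In each of these clusters the weakest peak was the same in both libraries.

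The clusters at Zrsr1, Nespas, Peg3 and the Gnas start each had most of their peaks under the autosomal median signal of 68.4. Signals were 28.5 to 104 at Zrsr1, which lies in an intron of Commd1, 40.1 to 58.1 at Nespas, 13.9 to 60.8 at Peg3, a zinc finger gene of the paternal allele, and 11.6 to 25.9 at the start of Gnas, for a G protein subunit. A further cluster in an intron of Gnas, 10269 bp from the nearest start and so outside the 10 kb limit, was stronger, with a highest signal of 140.3, a median of 109 and a lowest of 22.9, and all 3 of its motifs pointed the same way. It was added after its values were seen. Peg3 peaks 1 and 2 had relative signals of 1.29 and 0.443 in replicate 1 and of 1.01 and 0.242 in replicate 2, and peak 3 was found in replicate 1 only. At the Gnas start, 1 of the 3 peaks was found in both libraries. The strongest Zrsr1 peak had 0.747 in replicate 1 and 2.20 in replicate 2, and so it was the strongest of its cluster in replicate 2 but not in replicate 1.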

How the data were processed

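CTCF ChIP-seq peaks of 2 libraries were used. Per the file headers and labels, the authors deposited narrowPeak lists on build mm10, called against a control for each library, for both pooled, and as optimal and conservative IDR lists. The name of the peak caller was not given in the sources used here. Per the file headers, signal was deposited per peak on a scale that no source states, and it was compared within a list only. The summit was deposited as an offset in bases. Read depth is unknown, so no value has a depth behind it, and Wilson 95% intervals cover counting error only.

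Peaks were chained with Python 3.11.15, numpy 2.4.6, pandas 2.3.3 and scipy 1.17.1, by the rule that opens the report, and the steps were tested on simulated data. Positions were compared with the GRCm38 reference and GENCODE annotation vM21 of the same build. A summit was promoter (within 1 kb of a start), else exon, intron or intergenic. A peak was found in another list when a summit there lay within 100 bp. No test over peaks was made. Peaks on X and on unplaced scaffolds were left out of all comparisons.

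The clusters and gene lists were chosen with earlier results of these data known. Named clusters were the 8 with the most peaks, the 8 with the highest weakest peak, the 5 shortest and the 5 longest, the 5 of highest summed signal with at most 1 mismatch at every peak, the 5 most alike in sequence, and the 5 strongest within 10 kb of a start in each gene list, with the 3 distances nearest to each limit. Values are printed for some of them. A cluster is called by its nearest gene start or, where that is an unnamed model, by the gene around it. Alternatives were the conservative list, each library alone, other distances, other motif and promoter settings and stronger peaks only.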

Additional observations from a re-analysis of the deposited data

Results flagged for a closer look

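The X chromosome was outside the rule and holds 7 clusters when the same rule is applied to it. They are listed because no comparison used them, and their number was not tested. They had 31 peaks, or 2.86% of the 1083 merged X peaks, against 8.35% on the autosomes. Single autosomes ran from 4.26% on chromosome 14 to 11.9% on chromosome 11, and the density of peaks was not matched. The pair of clusters with 8 and 5 peaks both lay in Firre, a gene for a long RNA that is known for its rows of repeated CTCF sites, at 50597311 to 50607842 and at 50611879 to 50620150 on mm10. Their signals ran from 31.8 to 136 and from 51.3 to 126. A motif match with at most 2 mismatches was found at 1 of the 8 and at 0 of the 5 peaks. A cluster of 6 peaks in Gm21887 had signals from 12.98 to 379 and 4 matches, all on the minus strand. Clusters of 3 peaks lay, among other places, in Glod5 and in Chic1, each with 3 matches on the minus strand.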

How the results depend on the processing

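Counts followed the distance and the peaks admitted. The number of clusters was 1238 with neighbours up to 3 kb apart, 636 with 2 kb, 2393 with 5 kb, 245 with peaks above the median signal only, and 1164 to 1455 in either library alone. The share of autosomal peaks in clusters was 4.19% with 2 kb, 17.1% with 5 kb, 3.12% with peaks above the median and 7.78 to 9.98% in the libraries. The motif share of cluster peaks was 33.7% with at most 1 mismatch, 85.0% with at most 3, 53.6% within 25 bp, 84.6% with peaks above the median and 55.9 to 67.8% in the libraries. The share of clusters with a promoter peak was 41.6% above the median, 49.8% with a window of 500 bp, 71.2% with 5 kb and 52.7 to 60.4% in the libraries. Every peak was in the conservative list in 99.6% of clusters above the median, and in 49.1 to 64.6% of those of the libraries. The same-strand share of motif pairs was 54.7% in the conservative list, 53.3% with 2 kb, 53.9% with 5 kb, 53.9% with merging up to 500 bp, 57.5% above the median, 56.6% and 52.3% with at most 1 and at most 3 mismatches, 55.1% and 54.1% within 25 and 100 bp, and 53.0 to 53.3% in the libraries. It counts as changed only because the SD between libraries was as small as 0.216 points (n = 2), and its lowest value was 52.3%. The Wilson interval of the reported share, counting error only, was wider, at 50.9 to 56.4 from 1232 motif pairs. Only the values of 57.5% above the median and 56.6% with at most 1 mismatch lay outside it. They rest on 393 and 387 motif pairs, so the shifts in this share were not told apart from counting error. Above the median signal, and in the libraries, peaks differ from the reported ones by construction, and for the other changes the cause was not tested. The conservative list, no merging, and merging up to 500 bp changed none of the other values they were applied to by more than the spread between libraries. No paired analysis was possible because the 2 libraries form 1 group. Without read counts, a weak peak missing from a library cannot be told from one below its depth.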
